A study of Mus musculus with 6 samples.

Results

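Integrins and laminins are the families through which epithelial cells hold on to the basement membrane, and 37 of the 36047 annotated genes measured belong to them: 26 integrin chains and 11 laminin chains. The members are the genes whose symbol is that of an integrin alpha chain (Itga), an integrin beta chain (Itgb) or a laminin chain (Lama, Lamb, Lamc). Itgb1bp1, Itgb1bp2, Itgb2l, Itgb3bp and Itgbl1, which have similar symbols but encode binding partners or related proteins, were left out. Of the 37 genes, 25 had enough counts to be tested (18 integrins and 7 laminins), and the other 12 are given by their counts.

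The cells were MLE-12, a mouse lung epithelial line immortalised with the SV40 large T antigen, of wild-type genotype, grown in medium with fetal bovine serum at 2% and with insulin, transferrin and selenium. In 3 libraries the cells had received cigarette smoke extract (CSE, a solution of smoke constituents) at 5% and an optical density of 2, added when the cultures were at 30% density and left for 24 h. In the 3 control libraries they had received the same volume of phosphate-buffered saline (PBS). Polyadenylated RNA was sequenced, and each library held between 12093009 and 24050167 estimated counts, so that 3 counts corresponded to between 0.125 and 0.248 CPM (counts scaled to library size).

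An integrin is a pair of 1 alpha and 1 beta chain that spans the cell membrane. The alpha chain largely sets the ligand (laminin, collagen, or proteins with an arginine-glycine-aspartate motif, RGD), and the cytoplasmic tail of the beta chain is coupled through talin, kindlin and other adaptors to actin. A laminin is a secreted trimer of an alpha, a beta and a gamma chain that assembles into the sheet-like network of the basement membrane, where type IV collagen, nidogen and perlecan join it. In the lung, the trimers of the α5 chain lie under the alveolar and airway epithelium, and the α3β1 and α6β4 integrins are epithelial laminin receptors.

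The labels call the samples a lung epithelial cell line, whereas the extraction text speaks of lung tissue. Of 8 epithelial markers, Krt18, Cldn4, Cldn7 and Esrp1 had a mean under 1 TPM (a level per transcript length, scaled to the same sum in each library). The list as a whole summed to between 1163 and 1282 TPM in the PBS libraries and to between 605 and 690 TPM in the CSE libraries. Krt19 made up most of that sum, at means of 1005 and 493 TPM, followed by Krt8 at 206 and 160 TPM. In that list 4 of the 8 were called lower (Krt19, Krt8, Cdh1 and Esrp1), and Epcam was not called (-0.46 ± 0.24, edgeR adjusted p = 0.259). Alveolar type 2 markers summed to between 153 and 173 TPM with PBS and to between 136 and 148 TPM with CSE. Nkx2-1 made up most of that sum, at means of 121 and 106 TPM, followed by Abca3. Sftpa1 had no counts, and Sftpd and Lamp3 had a mean under 1 TPM. Sftpc was called lower, from 3.09 to 0.942 TPM (-1.57 ± 0.37, edgeR adjusted p = 0.0205). Basal cell, leukocyte, platelet and endothelial lists each summed to between 0.489 and 9.61 TPM in every library, with no counts for the endothelial cadherin gene Cdh5 or for the platelet genes Pf4, Ppbp and Treml1, and 7 of 10 leukocyte markers under 1 TPM. Among these lists 1 gene was called, the leukocyte marker Csf1r, higher with CSE (0.94 ± 0.21, edgeR adjusted p = 0.0147). In TPM, which takes in transcript length, Csf1r went from 1.76 ± 0.256 to 2.00 ± 0.191 (SD, n = 3), and the groups overlapped. The fibroblast and smooth muscle list went from between 870 and 1126 TPM to between 478 and 545 TPM, and the matrix proteoglycan decorin (Dcn) made up most of that sum, at means of 954 and 507 TPM, while 7 of its 10 genes, Col1a2 and Col3a1 among them, were under 1 TPM. In that list Dcn and Col1a1 were called lower and Pdgfra higher, from 2.67 to 4.49 TPM (0.84 ± 0.12, edgeR adjusted p = 0.00125). The part of these shifts in the results on integrins and laminins was not tested, and in RNA from whole cultures fewer cells of a kind and less RNA per cell cannot be told apart. Whether the libraries of a group stem from separate cultures is not stated in the labels, so the p-values refer to the spread among 3 libraries, and that spread may be technical.

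With CSE, 1 integrin gene rose and 1 integrin gene and 2 laminin genes fell. Itga1, which encodes the α1 chain of the collagen and laminin receptor α1β1, rose, and Lama5, Lamb2 and Itgb4, which encode the laminin α5 and β2 chains and the integrin β4 chain, fell (edgeR's quasi-likelihood test, Benjamini-Hochberg adjusted p under 0.05 over all 13451 genes tested). That is 1 of 25 tested genes higher (4%), where 4.32% of all genes tested were called higher, and 3 of 25 lower (12%), where 7.12% of all genes tested were called lower. The share called higher is close to that over all genes, and the larger share called lower rests on 3 genes. The remaining 21 tested genes were not called. The fitted change was below 0 for 23 of the 25 genes, whereas it was below 0 for 49.1% of all genes tested. The median log2 change was -0.20 over the 25 genes and 0.01 over all genes tested. With the GC and length trend of each library removed, the changes of Itga3 and Itgb3 turned to 0.0076 and 0.0703, and 2 members were called lower. The part of that trend in the median was not tested. For 11 of the 25 genes (44%) all 3 CSE libraries lay below all 3 PBS libraries, against 16.2% of all genes tested, and for 1 gene, Itga1, all 3 lay above, against 15.1%.

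**Figure D1:**
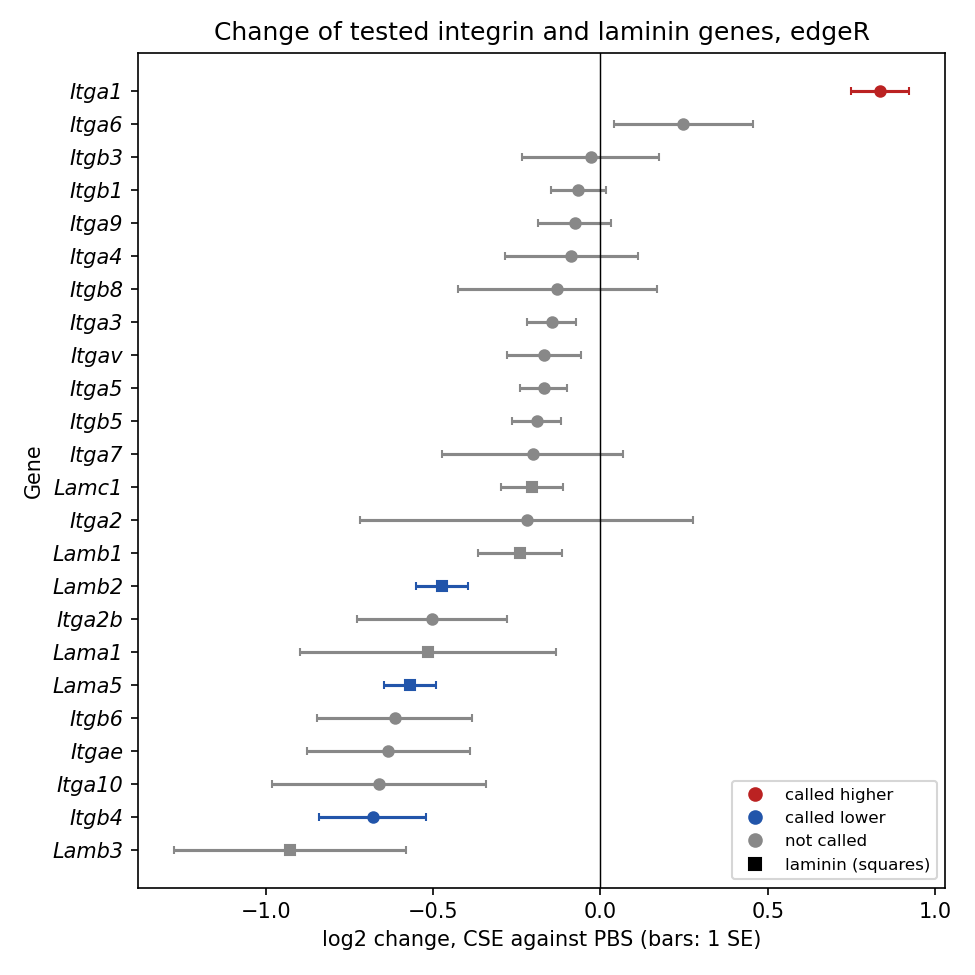
Fitted log2 change between CSE and PBS (horizontal axis, bars 1 standard error) for 24 of the tested integrin and laminin genes (vertical axis), coloured by call, with squares for laminins. Itga1 is the only point called higher, at 0.83, Itga6 is the only other point right of 0, and the other 22 points lie left of it.

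The starts of 3 of the 4 genes that changed are printed here, because the direction of change divides them: the promoter of the gene that rose is followed by those of the 2 laminin genes that fell. Each is the RefSeq window on GRCm38.p6 from 250 bases before to 50 bases after the start annotated by RefSeq. It is written 5′ to 3′ along the gene's own strand, with the bases from that start on in capitals. For Lamb2 the start is base 108479862, whereas the annotation used for the counts begins the gene earlier, at base 108479736, among the lower-case bases. Itga1 lies on the minus strand (chr13:115101915-115102214), Lama5 on the minus strand (chr2:180225810-180226109) and Lamb2 on the plus strand (chr9:108479612-108479911).
Itga1: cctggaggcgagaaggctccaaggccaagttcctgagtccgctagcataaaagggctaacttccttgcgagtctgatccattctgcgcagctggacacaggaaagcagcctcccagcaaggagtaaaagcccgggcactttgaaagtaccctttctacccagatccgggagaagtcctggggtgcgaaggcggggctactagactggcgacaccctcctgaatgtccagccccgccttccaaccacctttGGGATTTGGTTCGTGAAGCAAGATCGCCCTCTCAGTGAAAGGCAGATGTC
Lama5: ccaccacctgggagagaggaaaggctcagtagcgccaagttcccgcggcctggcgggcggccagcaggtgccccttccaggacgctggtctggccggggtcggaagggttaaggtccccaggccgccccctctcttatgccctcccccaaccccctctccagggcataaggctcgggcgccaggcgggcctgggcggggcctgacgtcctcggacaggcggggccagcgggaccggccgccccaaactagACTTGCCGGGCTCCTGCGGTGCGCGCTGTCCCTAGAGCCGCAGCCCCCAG
Lamb2: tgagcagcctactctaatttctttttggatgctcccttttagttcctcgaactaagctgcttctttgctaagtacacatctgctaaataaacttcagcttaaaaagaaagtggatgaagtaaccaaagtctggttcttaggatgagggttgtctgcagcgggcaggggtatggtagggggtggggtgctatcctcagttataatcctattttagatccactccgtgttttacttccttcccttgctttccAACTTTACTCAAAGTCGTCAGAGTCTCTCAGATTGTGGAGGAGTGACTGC
The Lama5 window is a CpG-rich promoter, with 72.7% G and C bases and 24 CpG pairs, and the Itga1 window has 56.7% and 12. The Lamb2 window has 44% and 4, below the median of 52.7% and 7 over the 32817 promoter windows in the table. The 2 laminin promoters whose genes fell therefore differ more from each other in base composition than either does from that of Itga1. The windows were searched on both strands for TGANTCA (the AP-1 element), GCGTG (the core of the aryl hydrocarbon receptor element), GGAATG (the TEAD element) and TGACNNNGC (the core of the NRF2 element). None of the 4 was found in any of the 3 windows. Of all promoter windows, 7.81% held TGANTCA, 32.4% GCGTG, 14.7% GGAATG and 12.4% TGACNNNGC, so the absence of each is common, and no match says only that these letters are not in this window.

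The levels in control cells show which integrin and laminin genes had the most RNA in MLE-12. Protein was not measured, and the TPM of a gene includes its short and non-coding transcripts. By TPM in the PBS libraries, Itgb1, the β1 chain that pairs with most alpha chains, was highest at 396 ± 44.3 (SD, n = 3), and overlapped with Lamc1, the laminin γ1 chain, at 363 ± 41.0. Lama5 followed at 252 ± 2.53, of which its full-length coding transcript had 39.2 ± 4.09. Itga3, Itgb5 and Lamb2 came next and could not be ordered, at 134 ± 10.2, 134 ± 3.39 and 133 ± 19.7 TPM. Itgav stood apart below them at 49.1 ± 6.54, and Itga5 had 18.9 ± 1.05. Itga6 and Itga2b, at 12.7 ± 2.23 and 11.2 ± 2.03, overlapped with each other, and Itga1 was at 4.42 ± 0.293.

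**Figure D2:**
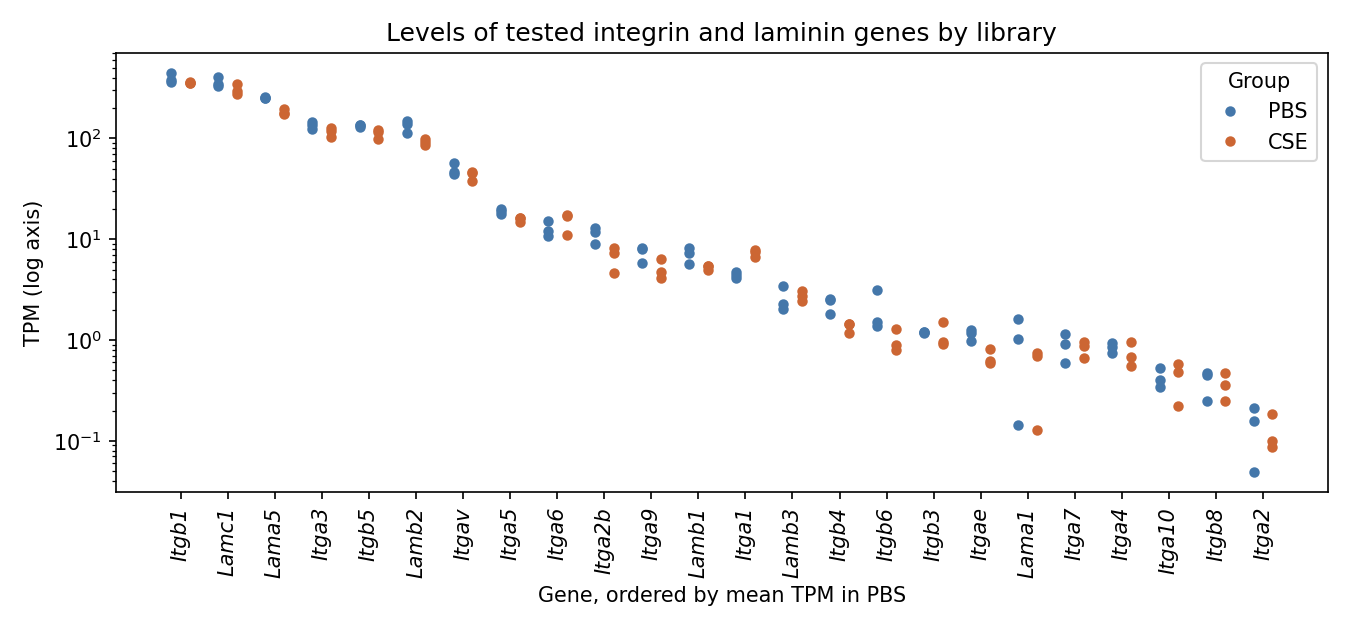
TPM of 24 of the tested genes in each library (vertical log axis), with genes ordered by their mean in PBS along the horizontal axis and groups in 2 colours. Itgb1, Lamc1 and Lama5 lead, and the CSE points of Itga1 lie above its PBS points whereas those of Lama5 and Lamb2 lie below theirs.

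Within each chain class the make-up of the pool was dominated by 1 or 2 genes. Itga3 gave 55.4% of the summed TPM of integrin alpha chains in the PBS libraries and Itgav 20.2%. Itgb1 gave 73.7% and Itgb5 25.1% of that of integrin beta chains. Lama5 gave 99.6% of the laminin alpha TPM, Lamb2 93.2% of the laminin beta TPM and Lamc1 94.7% of the laminin gamma TPM, so the α5, β2 and γ1 chains made up nearly all laminin RNA. With CSE these shares were 99.6%, 92.0% and 94.9%. The share of Itga1 among alpha chains went from 1.83% ± 0.138 to 3.43% ± 0.0775, while Itga3 went from 55.4% to 53.8%. For Lama5, short non-coding transcripts held most of the gene's TPM, and for Lamc1 a short coding transcript did, so their levels carry that share. The longest coding transcript held 94.3% of the TPM of Itgb1 and 83.0% of that of Lamb2, and Itga3 was nearly all in 2 long coding transcripts, with 84.1% in Itga3-202.

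Of the alpha chains grouped here as laminin-binding (Itga3, Itga6 and Itga7), none was called. Itga3 encodes the α3 chain, which with β1 binds laminins of the α5 and α3 chains. Its normalised counts were 373.6, 386.5 and 392.0 CPM with PBS and 367.1, 352.5 and 322.3 CPM with CSE. All CSE libraries lay below all PBS libraries, by little, and the log2 change of -0.15 ± 0.07 (SE) did not pass the test (adjusted p = 0.240, edgeR quasi-likelihood). Itga6, the α6 chain of the α6β1 and α6β4 laminin receptors, lay between 4.18 and 7.21 CPM with PBS and between 5.64 and 7.23 CPM with CSE. Its log2 change of 0.25 ± 0.21 was not called (edgeR adjusted p = 0.490), and 84.7% of its TPM came from the non-coding transcript Itga6-205, of 443 bases. Itga7, another laminin-binding chain, was also not called, at -0.20 ± 0.27 and an edgeR adjusted p of 0.684.

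Of the collagen-binding chains, Itga1 rose. The gene (ENSMUSG00000042284.10, minus strand, chr13:114953096-115101964) had 25.4, 30.2 and 26.3 CPM in the PBS libraries and 49.2, 49.8 and 47.4 CPM in the CSE libraries. Every CSE library was above every PBS library by a wide margin, and the spread within each group was small. The log2 change was 0.83 ± 0.09 (SE; edgeR quasi-likelihood adjusted p = 0.000116), and TPM went from 4.42 ± 0.293 to 7.33 ± 0.583 (SD, n = 3). The full-length coding transcript Itga1-201, of 10967 bases, held 87.5% of the gene's TPM and rose by 0.86 ± 0.10 on the log2 scale, from 3.80 to 6.48 TPM (edgeR adjusted p = 0.0214 over 33930 transcripts tested). It was the only member transcript called among 52 tested, where 0.318% of all transcripts tested were called higher and 0.589% lower. The call on the transcript was lost on the log2(TPM + 1) scale (0.64, adjusted p = 0.170), with a replicate block (0.86, adjusted p = 0.260) and without any 1 library other than the second PBS library (adjusted p from 0.0676 to 0.126). Without 1 library its log2 change was between 0.80 and 0.94. Pelo, a ribosome rescue gene on the same strand inside Itga1, was not called (0.22 ± 0.07, edgeR adjusted p = 0.0566), and the other gene inside it, Gm49395, had 40 counts with PBS and 23 with CSE. Itga2 and Itga10, further collagen-binding chains, were not called at -0.22 ± 0.50 and -0.66 ± 0.32 (edgeR adjusted p 0.826 and 0.223), and 33.1% of the 31-base words of Itga10 occur in the gene model Gm42957. The fourth collagen-binding chain, Itga11, was too low to test, with 24 counts in PBS and 26 in CSE. The rise among collagen-binding chains was thus seen in Itga1 alone of the 3 that could be tested, and the difference between them was not tested.

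**Figure D3:**
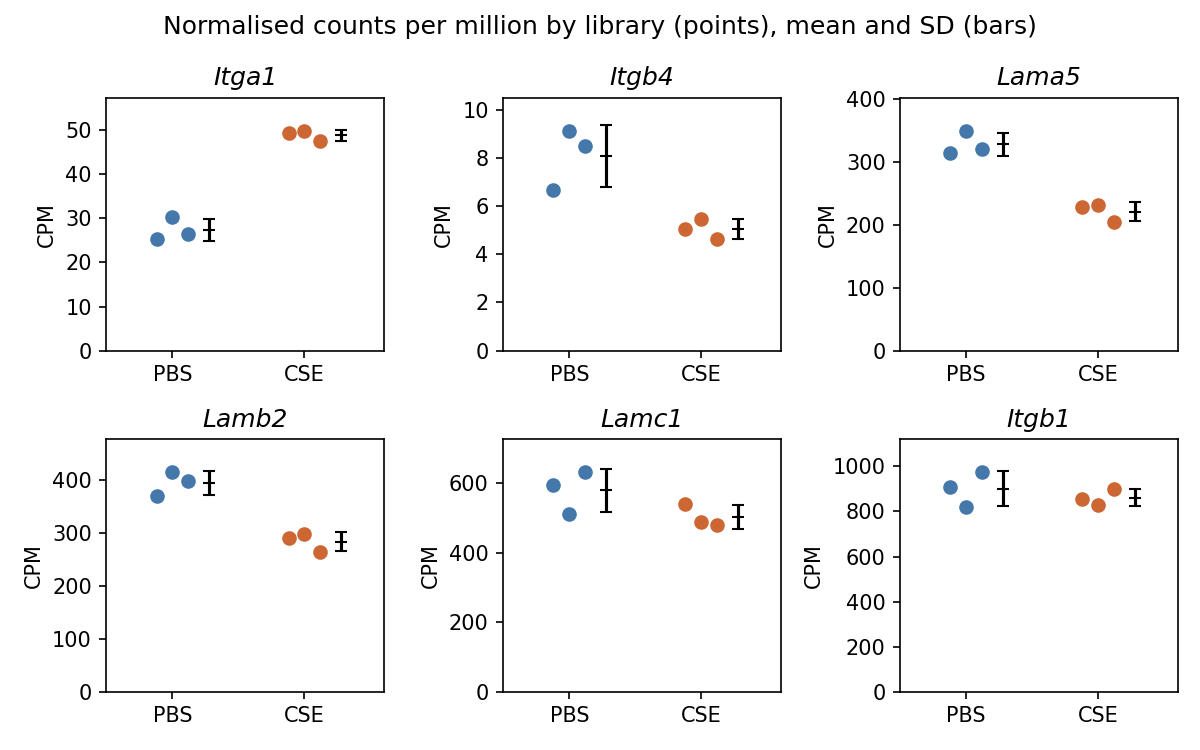
CPM in each of the 6 libraries (points) with the mean and SD (bars) for the 4 genes that changed and for Lamc1 and Itgb1, which did not pass the test. The CSE points lie above the PBS points for Itga1 and below them for Itgb4, Lama5 and Lamb2, and the groups overlap for Lamc1 and Itgb1.

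The RGD-binding chains recognise fibronectin, vitronectin and latent TGF-beta, and none was called. Itgav, the αv chain, had 173.7, 137.1 and 186.3 CPM with PBS and 153.6, 154.3 and 134.4 CPM with CSE. The groups overlapped because the second PBS library was low, and the log2 change was -0.17 ± 0.11 (edgeR adjusted p = 0.368). Without that library it was -0.29 with an adjusted p of 0.0475. Itga5, the fibronectin receptor chain, lay between 48.0 and 48.9 CPM with PBS and between 41.6 and 44.7 CPM with CSE, and its log2 change of -0.17 ± 0.07 did not pass (edgeR adjusted p = 0.153). Itga2b, known from platelets, was not called at -0.50 ± 0.22 (edgeR adjusted p = 0.185), and its coding transcript Itga2b-201 held only 8.81% of its TPM. Itga8, the remaining chain of this group, had 1 count in PBS and 3 in CSE.

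The α4 and α9 chains, which bind vascular adhesion molecules, fibronectin and tenascin, showed no called change, with -0.09 ± 0.20 for Itga4 and -0.08 ± 0.11 for Itga9 (edgeR adjusted p 0.828 and 0.703). Of the leukocyte chains, only Itgae, which pairs with β7 to bind E-cadherin, was tested, and it was not called at -0.63 ± 0.24 (edgeR adjusted p = 0.125), although all CSE libraries were below all PBS libraries. Itgal, Itgam and Itgax, known from white blood cells, had 14, 25 and 1 counts in PBS and 15, 21 and 0 counts in CSE. Itgad had 7 counts in PBS and 23 in CSE, a depth-scaled ratio of 3.20 (95% interval 1.33 to 8.83), and each CSE library was above each PBS library. The exact two-sided permutation test over libraries gave p = 0.1, the smallest that 3 against 3 allows. The most abundant Itgad transcript was the 404-base Itgad-203, with 2 and 15 counts, and part of its words also occur in Itgax.

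Of the beta chains, Itgb4 fell, at a low level. Itgb4 pairs with α6 in hemidesmosomes, where it joins laminin to keratin filaments. The gene (ENSMUSG00000020758.15, plus strand, chr11:115974709-116008412) had 6.65, 9.12 and 8.49 CPM with PBS and 5.06, 5.48 and 4.64 CPM with CSE. All CSE libraries were lower than all PBS libraries, and the nearest pair differed by less than the PBS spread. The log2 change was -0.68 ± 0.16 (edgeR quasi-likelihood adjusted p = 0.0195), and TPM went from 2.29 ± 0.431 to 1.35 ± 0.148 (SD, n = 3). Its TPM came from Itgb4-204 (46.4%), Itgb4-203 (30.2%) and Itgb4-202 (17.5%), none of which was called on its own. The call was lost in 7 of 17 alternatives, among them leaving out the third PBS library (adjusted p = 0.0750) or any of the CSE libraries (adjusted p 0.0515, 0.0524 and 0.0888), over a range of adjusted p from 0.00132 to 0.193. Its log2 change lay between -0.79 and -0.48 over the 17 alternatives and so kept its direction.

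The abundant beta chains were not called. Itgb1, the common partner of α1, α3, α5, α6 and αv, had 910.4, 819.4 and 973.9 CPM with PBS and 855.0, 827.4 and 900.5 CPM with CSE. The groups overlapped, and the log2 change was -0.07 ± 0.08 (edgeR adjusted p = 0.661). Itgb5, a partner of αv, had 189.6, 183.3 and 179.0 CPM with PBS and 168.0, 166.5 and 149.0 CPM with CSE. Each CSE library lay below each PBS library, but the log2 change of -0.19 ± 0.07 did not pass (edgeR adjusted p = 0.123). Itgb6, the epithelial partner of αv that activates latent TGF-beta, likewise had no overlap between groups, lay between 1.66 and 4.08 CPM and was not called at -0.61 ± 0.23 (edgeR adjusted p = 0.119). Itgb3 and Itgb8 were not called at -0.03 ± 0.20 and -0.13 ± 0.30 (edgeR adjusted p 0.948 and 0.829). Itgb2, the leukocyte beta chain, had 17 and 20 counts in PBS and CSE, and Itgb7 10 and 6.

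Of the laminins, 2 of the 3 chains that made up most of the RNA fell. Lama5 encodes the α5 chain, which carries the sites bound by α3β1 and α6 integrins. The gene (ENSMUSG00000015647.9, minus strand, chr2:180176373-180225859) had 314.7, 349.8 and 321.2 CPM with PBS and 228.8, 231.3 and 204.6 CPM with CSE. Every CSE library was well below every PBS library. The log2 change was -0.57 ± 0.08 (edgeR quasi-likelihood adjusted p = 0.000799), and TPM went from 252 ± 2.53 to 182 ± 10.7 (SD, n = 3). The full-length transcript Lama5-201, of 11388 bases, held 14559 counts in PBS and 9656 in CSE but only 14.6% of the gene's TPM. Another 28.8%, 26.3% and 30.3% came from 3 short non-coding transcripts of 451, 734 and 478 bases. Lama5-201 itself went from 39.2 ± 4.09 to 24.2 ± 3.21 TPM, with a log2 change of -0.61 ± 0.10 and an edgeR adjusted p of 0.0659 over transcripts. DESeq2 gave an adjusted p of 2.33e-06 for that transcript and limma-voom 0.0475.

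Lamb2 encodes the β2 chain, which joins α5 and γ1 chains in one trimer. The gene (ENSMUSG00000052911.9, plus strand, chr9:108479736-108490530) had 368.7, 413.9 and 397.3 CPM with PBS and 289.7, 297.0 and 263.0 CPM with CSE. The lowest PBS library was above the highest CSE library by more than the spread within either group. The log2 change was -0.47 ± 0.08 (edgeR quasi-likelihood adjusted p = 0.00246), and TPM went from 133 ± 19.7 to 92.2 ± 6.12 (SD, n = 3). The coding transcript Lamb2-201 held 83.0% of the TPM and went from 112 ± 10.3 to 75.9 ± 7.34 TPM, at -0.47 ± 0.07 with an edgeR adjusted p of 0.0582. No member transcript was called lower by edgeR, 8 had an unadjusted p under 0.05 in that direction, and DESeq2 and limma-voom each called 2, Lama5-201 and Lamb2-201. Another 16.1% came from Lamb2-205.

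The third chain of that trimer, Lamc1 (γ1), was not called. It had 595.7, 511.2 and 631.2 CPM with PBS and 541.2, 488.8 and 478.7 CPM with CSE. The groups overlapped because the second PBS library lay below the first CSE library. The log2 change was -0.20 ± 0.09 (edgeR adjusted p = 0.188). Without the second PBS library it was -0.29 with an adjusted p of 0.0415. A large share of Lamc1 TPM, 79.3%, came from Lamc1-204, of 1447 bases, and nearly all of the rest from the full-length Lamc1-201. Lamb3, the β3 chain of the laminin that anchors hemidesmosomes, was not called at -0.93 ± 0.35 (edgeR adjusted p = 0.115), at no more than 1.69 CPM in any library, and passed without the first PBS library (-1.14, adjusted p = 0.0469, with 0.0469 to 0.855 over the alternatives). That direction turned to 0.15 with an offset for transcript length, and 78.0% of Lamb3 TPM came from the 258-base Lamb3-205. Lamb1, the β1 chain, went from between 19.7 and 26.8 CPM to between 17.7 and 21.2 CPM and was not called (-0.24 ± 0.13, edgeR adjusted p = 0.257), nor was Lama1 (-0.52 ± 0.38, edgeR adjusted p = 0.431).

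The remaining laminin chains were near the limit of detection. Lama2, the α2 chain known from muscle, had 5 counts in PBS and 15 in CSE, a depth-scaled ratio of 2.92 (95% interval 1.01 to 10.3), with each CSE library above each PBS library and an exact two-sided permutation p of 0.1. Lama3, the α3 chain of the hemidesmosomal trimer, had 28 and 19 counts, a ratio of 0.661 (0.349 to 1.23). Lama4, known from vessels, had 1 and 4 counts, and Lamc3 8 and 7. Intervals cover counting error only.

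The 4 calls differed in how they held across settings. Itga1, Lama5 and Lamb2 kept their call and direction in all 17 alternatives. The log2 change of Itga1 lay between 0.62 and 0.91, that of Lama5 between -0.60 and -0.39 and that of Lamb2 between -0.52 and -0.30, and the largest adjusted p were 0.0222, 0.0133 and 0.0256.

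**Figure D4:**
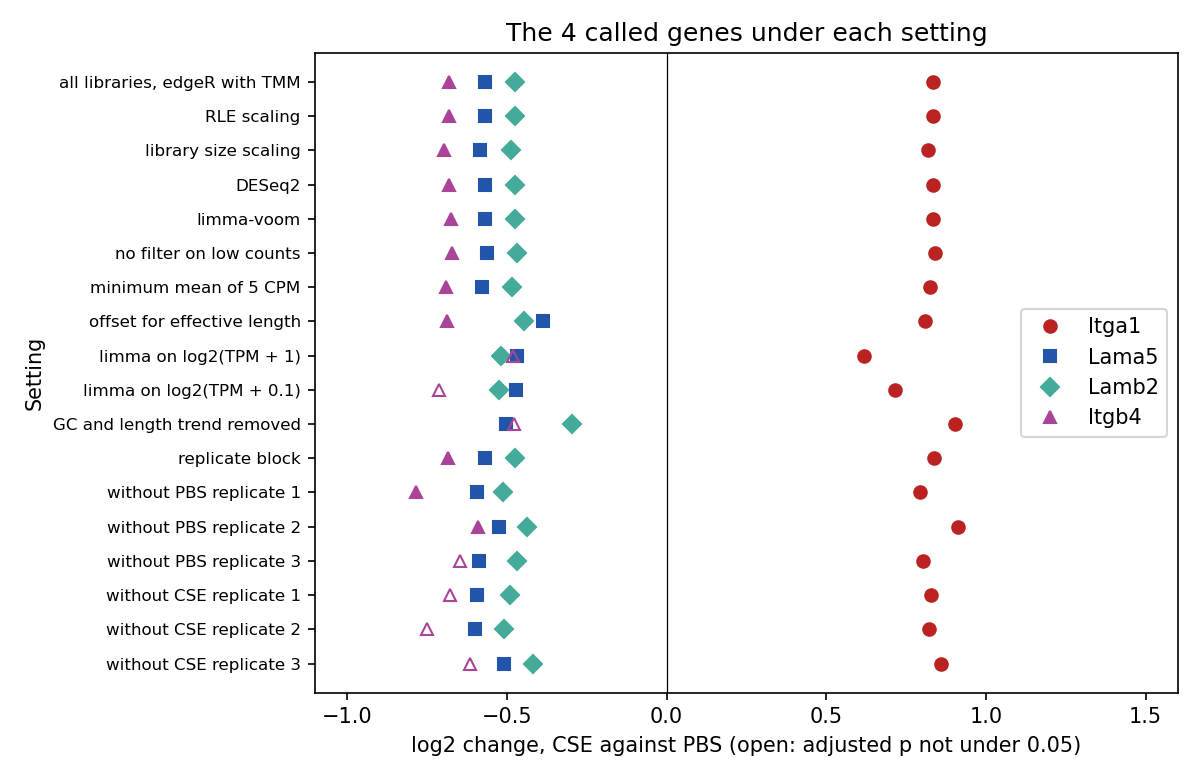
Log2 change between CSE and PBS of the 4 called genes (horizontal axis, 1 colour and marker per gene) under each of 18 settings (vertical axis), with open symbols where the adjusted p was not under 0.05. The symbols of Itga1, Lama5 and Lamb2 are filled in every row, and 7 of those of Itgb4 are open.

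The neighbours of these genes in the cell's attachment machinery were described from 3 lists. Of 40 focal adhesion and adaptor genes, 36 were tested, 10 were called lower (27.8%) and 1 higher, with a median log2 change of -0.14. Kank1, which links talin to the cell cortex around adhesions, fell from 10.7 to 4.71 TPM (log2 -1.11 ± 0.09, edgeR adjusted p = 3.1e-05). The actin crosslinker Actn1 and the adhesion proteins Zyx and Tns2 fell by 0.50 ± 0.08, 0.52 ± 0.08 and 0.55 ± 0.08 on the log2 scale (edgeR adjusted p 0.0018, 0.0019 and 0.00133), with Actn1 going from 408 to 265 TPM. Tns4, a tensin without the actin-binding part, was the 1 gene higher, from 2.93 to 4.18 TPM (0.66 ± 0.13, edgeR adjusted p = 0.00771). It was named after its values were seen, and it was not called on the log2(TPM + 1) or log2(TPM + 0.1) scale.

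Of 31 basement membrane and laminin-anchoring genes, 24 were tested, 13 were called lower (54.2%) and none higher by edgeR or DESeq2, with 1 gene higher at an unadjusted p under 0.05 and a median log2 change of -0.31. Between 7 and 8 were called lower when the third PBS library or any CSE library was left out. Sparc, a collagen-binding matrix protein and the most abundant of the list, went from 3067 to 2026 TPM (-0.44 ± 0.08, edgeR adjusted p = 0.00588). Hspg2, which encodes perlecan, went from 275 to 160 TPM (-0.68 ± 0.09, edgeR adjusted p = 0.000551). The type IV collagen chains Col4a3 and Col4a4, which form a trimer with Col4a5, went from 44.6 to 21.2 and from 99.3 to 57.9 TPM (-1.003 ± 0.0811 and -0.69 ± 0.07, edgeR adjusted p 2.6e-05 and 0.000159). Fras1, a protein of the epithelial basement membrane, went from 16.2 to 8.24 TPM (-0.89 ± 0.13, edgeR adjusted p = 0.00106). Col4a1 and Col4a2, named after their values were seen, were not called at 0.12 ± 0.08 and 0.10 ± 0.07 (edgeR adjusted p 0.369 and 0.425), and the difference from Col4a3 and Col4a4 was not tested. With the GC and length trend of each library removed, both were called higher, at 0.27 and 0.34 (adjusted p 0.0244 and 0.00599).

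Of 32 integrin ligands other than laminins, 23 were tested, 8 were called lower (34.8%) and none higher by edgeR or DESeq2, with 0 genes higher at an unadjusted p under 0.05 and a median log2 change of -0.27. The number lower was 5 when the third PBS library or any CSE library was left out. Cdh1, E-cadherin and the ligand of the Itgae chain's integrin, went from 6.04 to 2.98 TPM (-0.89 ± 0.14, edgeR adjusted p = 0.00207). The collagen genes Col6a1 and Col1a1 fell by 0.66 ± 0.08 and 0.60 ± 0.07 on the log2 scale (edgeR adjusted p 0.000456 and 0.000353), and Tnc, tenascin C, went from 35.2 to 24.6 TPM (-0.45 ± 0.07, edgeR adjusted p = 0.00227). Col1a1 and Cdh1 also stand in the fibroblast and epithelial marker lists above. Ccn1, the most abundant ligand, went from 1120 to 802 TPM and was not called (-0.42 ± 0.18, edgeR adjusted p = 0.181), with adjusted p between 6.1e-05 and 0.471 under the alternatives. It was called lower with no filter (adjusted p = 6.1e-05) and with a replicate block (-0.41, adjusted p = 0.0288). The called shares of these lists stand beside 7.12% lower and 4.32% higher over all genes tested, and beside 12% lower and 4% higher of the 25 tested integrins and laminins. These lists were chosen with earlier results of these data known, so their shares may reflect that choice. They were not compared with the integrin and laminin genes by a test.

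**Figure D5:**
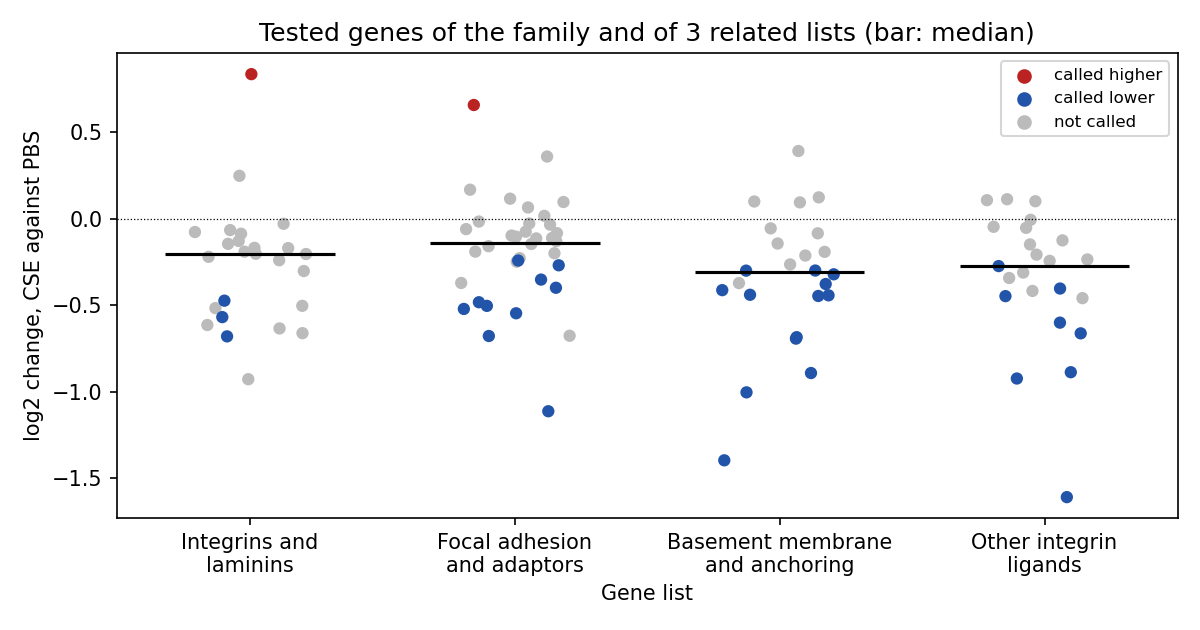
Log2 change between CSE and PBS (vertical axis) for the tested integrin and laminin genes and for the tested genes of 3 related lists (horizontal axis), each point 1 gene coloured by call, with a bar at the median. All 4 medians lie below 0, and the basement membrane list has the lowest, at -0.31.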

How the data were processed

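PolyA RNA of MLE-12 cells was sequenced, and samples were grouped by the treatment in their titles. The deposited files list 118489 transcripts, each with an estimated count, a TPM value and an effective length, per the file headers, which carry kallisto's column names. TPM was scaled by the authors' software to one sum per library. Per the submitters' processing notes, FastQC 0.12.1, fastp 0.20.1, kallisto 0.46.2, DESeq2 1.40.2 and the GRCm38 build were used, with no role given. The index, trimming and strand settings are not given in the sources used, so reads of genes that overlap on opposite strands cannot be told apart. Where transcripts share sequence, the estimated counts divide reads among them by a model.

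Transcripts were matched to GENCODE vM21 (GRCm38), which held 116816 of them (98.6%). The other 1673, with 0.638% to 0.664% of counts, were left out. Estimated counts were summed per gene and rounded. Genes were filtered by filterByExpr (minimum count 10), scaled by TMM (factors 0.976 to 1.03) and compared by the quasi-likelihood test of edgeR (two-sided) with treatment as the only factor, Benjamini-Hochberg adjustment over all genes and a threshold of 0.05. The common coefficient of variation among libraries of a group, which edgeR terms biological but which may here be technical, was 9.17%. Transcripts were fitted in the same way. No libraries were duplicates, since chi-square per degree of freedom within groups was 5.61 to 17.7. Genes too low to test were compared by depth-scaled ratios with 95% conditional exact binomial intervals. Such intervals hold counting error alone, because without molecular identifiers reads are not independent molecules.

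All members are named except 1 tested gene, which is not reported here. Called genes, and genes whose mean reached 20 TPM, are given by library, with the 4 called genes of smallest p and the most abundant gene of each related list. Transcripts are named where called or where they held at least 10 percent of a called gene's TPM, and other transcripts were named after their values were seen. The members, lists and rules were chosen with earlier results of these data known. Ccn1, Ccn2 and Ccn3 were matched through RefSeq synonyms. Promoter sequences are RefSeq's, and 23 of the 37 members were in the table used.

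Alternatives were scaling by RLE or by library size alone, the tools DESeq2 and limma-voom, filters (none, or a mean of 5 CPM or more), an effective-length offset, limma fits of log2(TPM + 1) and of log2(TPM + 0.1) over genes whose mean TPM reached 1, loess removal (span 0.5) of GC and length trends within each library, a replicate block and each library left out in turn. The procedure was tested on simulated counts. Software was Python 3.11.15 with pandas 2.3.3 and R 4.3.3 with DESeq2 1.42.0, limma 3.58.1 and edgeR 4.0.16.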

Additional observations from a re-analysis of the deposited data

How the results depend on the processing

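Of all genes, 581 were called higher and 958 lower. The number higher was 1052 with no filter (with 1145 lower), 224 on log2(TPM + 1) (774 lower) and 220 on log2(TPM + 0.1) (765 lower). With 1 library left out, 281 to 967 genes were higher, with the highest count without the first PBS library, and 554 to 981 lower. Of integrins and laminins, 2 were called higher on either TPM scale, Itga1 and Itgad, and 2 to 5 lower with 1 library left out. Itgad reached the filter of a mean of 1 TPM only through its CSE libraries (means 0.390 TPM with PBS and 1.96 TPM with CSE). It had 7 counts in PBS and 23 in CSE, so its call on these scales is not taken as a result. The 5 lower were reached without the first PBS library, with Lamb3 among those added, and without the second, with Lamc1 and Itgav added. Member transcripts called higher were 0 on log2(TPM + 1), and 0 to 1 with 1 library left out, and those called lower were 2 by DESeq2 and 2 by limma-voom.

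Of focal adhesion genes, 0 were higher on log2(TPM + 1) and 0 on log2(TPM + 0.1). Of basement membrane genes, 1 was higher with no filter, 2 with the GC and length trend removed and 0 to 1 with 1 library left out, where 7 to 13 were lower. Of the other ligands, 5 were lower on log2(TPM + 1), 5 on log2(TPM + 0.1) and 5 to 8 with 1 library left out. The causes were not tested.

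Directions turned for Itga3 and Itgb3 with the GC and length trend removed (0.0076 and 0.0703), and for Lamb3 with the length offset (0.15), on log2(TPM + 1) (0.0823) and on log2(TPM + 0.1) (0.12). With 1 library left out, log2 changes spanned 0 for Itga2 (-0.53 to 0.18), Itga4 (-0.28 to 0.0530), Itgb3 (-0.24 to 0.0908), Itgb8 (-0.26 to 0.0527), Itgb4-202 (-7.66 to 0.34), Lama5-203 (-0.29 to 0.0828) and Lamb2-205 (-0.46 to 0.19). The lowest value for Itgb4-202 comes from a group with hardly any counts. None of these was called under any of the settings run, except Lamb3 without the first PBS library.

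Whether replicate numbers pair the samples is not stated in the labels. Correlations of same-numbered libraries' deviations were -0.119, -0.0175 and -0.0756, and no library correlated best with its own number. With 3 libraries a group, such weak correlations cannot decide it. With the replicate block, 331 genes were higher and 691 lower, and 1 integrin was higher and 3 integrin or laminin genes lower, as without it, while 0 member transcripts were higher.

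Depth limits the 12 untested genes, whose summed counts per group were 28 or fewer, and 3 libraries a group limit every call.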
